A study of Mus musculus with 6 samples.

Results

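The BCL2 family genes described here are Bcl2, Bcl2l1, Bcl2l2, Mcl1, Bak1, Bid, Bcl2l11, Bad, Bmf and Bik, measured on Affymetrix mouse arrays in senescent and proliferating hepatic stellate cells. Every probe set that the platform annotation gives to one of these symbols and to no other gene was taken, which gave 37 of the 45037 probe sets that are not controls, and all 10 genes were measured among 18193 genes. The senescent group (3 arrays) is labelled control for treatment and is described as expressing p53. Cells of the proliferating group (3 arrays) were given 1 ug/ml doxycycline, and their label names a p53 knockdown. Cells of both groups were of C57Bl/6 background and carried CMV-rtTA;TRE-GFP-shRNA.p53.1224, in which doxycycline lets the rtTA activator switch on a hairpin against p53 together with a green fluorescent protein. The control cells thus carry the transgene too, and doxycycline, the hairpin and the state of growth differ together between the groups and cannot be told apart. The labels do not state whether replicate arrays stem from different mice or dishes. All p-values therefore reflect the scatter among these 6 arrays alone, and that scatter may be technical.

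Proteins of the BCL2 family decide whether the outer mitochondrial membrane is opened, the step that releases cytochrome c and starts the caspases. BCL2, BCL-XL (from Bcl2l1), BCL-W (from Bcl2l2) and MCL1 keep the membrane closed, BAK (from Bak1) and BAX form the pores, and the BH3-only proteins BID, BIM (from Bcl2l11), BAD, BMF and BIK either bind the survival proteins or activate the pore formers. Senescent cells are known for resisting apoptosis, and activated stellate cells are cleared partly by apoptosis when liver fibrosis resolves, so the balance of these proteins has been studied in both settings. Arrays measure messenger RNA, whereas several of these proteins, among them MCL1, BAD and BID, are regulated largely after translation.

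The arrays had median log2 values of 6.15 to 6.19, and Pearson's r over probe sets (not independent of each other) was 0.995 to 0.997 within a group and 0.989 to 0.992 between groups. Proliferating replicate 1 stood apart on the second principal component (15.9% of the variance), at 28.6 against -22.1 to 11.7 for the other arrays, and values without it are given beside several changes below that it moved. The p53 target genes Cdkn1a and Mdm2 were 3.34-fold and 2.32-fold higher in senescent cells. Of 14 stellate cell markers measured, 10 lay above background on average (5.58 log2 units, a level under which 95% of 43 probe sets for olfactory receptors lay), but Lrat, Reln, Lhx2 and Ngfr did not, with Ngfr close to it. All 7 mesothelial markers also lay above background, and the log2 of their mean linear level was 10.96 to 11.02 on senescent and 10.97 to 11.17 on proliferating arrays. The same measure did not overlap between groups for the 4 biliary markers, all above background (9.30 to 9.45 on senescent and 8.97 to 9.03 on proliferating arrays), for the 6 portal fibroblast markers, also all above it (11.414 to 11.61 and 11.19 to 11.412), and for the stellate markers (12.92 to 12.93 and 12.99 to 13.01). This measure leans on the brightest marker of a list, and single markers went both ways. Of the biliary markers 1 rose (Krt19, 0.58) and 1 fell (Krt7, -0.69), with a median log2 change of -0.23 over the list. Of the portal fibroblast markers 2 rose and 2 fell, with a median of -0.17. The stellate list had 1 marker that rose (Timp1, 0.76) and 5 that fell (down to -2.09 for Pdgfra), with a median of -0.04. In the mesothelial list 2 rose (up to 1.57 for Krt18) and 3 fell (down to -1.80 for Lrrn4), with a median of -0.19. Over all genes 9.49% rose and 10.5% fell at the same threshold, an adjusted p of 0.05 (limma). Macrophage and lymphocyte lists had 5 of 8 and 4 of 8 genes above background, with overlapping levels. All 5 neutrophil markers lay at or below background on average, and the endothelial and hepatocyte lists had 1 of 7 and 3 of 7 genes above it. The part of other cells in the results below was not tested, and in bulk samples fewer cells of a type and less RNA per cell cannot be told apart.

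Among the 10 genes, Bcl2l1 was higher in senescent than in proliferating cells, by 1.40-fold, and it was the 1 gene of the 10 that passed an adjusted p of 0.05. None of the 10 passed in the other direction (limma), and none fell at an unadjusted p under 0.05 either. The rise of Bcl2l1 is relative to other genes of the same array. Poly-A spike-ins, bacterial RNAs added before labelling, read 0.54 log2 units higher in the senescent group (p = 0.1 by exact two-sided permutation, n = 3 each). That is the smallest p this test can give with these arrays. The spike-in means did not overlap between groups (10.17 to 10.65 on senescent and 9.75 to 9.93 on proliferating arrays). With scaling on these spike-ins, the median of all genes was -0.54 and Bcl2l1 turned to -0.05 (limma, adjusted p = 0.79). Such scaling shifts all genes of an array alike. The distance of Bcl2l1 from that median, 0.49, therefore stays the same by construction and is no test of the rise. The share of genes called over the whole array was 20.0% in either direction and 9.49% for higher in senescent cells, so 1 of 10 is not more than the array as a whole shows. Without adjustment, 3 of the 10 (Bcl2, Bcl2l1 and Bid) had a p under 0.05, against 31.5% of all genes. The groups did not overlap for 4 of the 10, with senescent cells higher for Bcl2, Bcl2l1 and Bid and lower for Bik, against 37.0% of all genes (17.4% with senescent cells higher and 19.6% with senescent cells lower). The median log2 change of the 10 genes was 0.09, beside -0.0018 over all genes. A fold change below is on the scale of the deposited log2 values, read from the gene's brightest probe set unless said otherwise, and every change is senescent minus proliferating.

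Among the survival genes, Bcl2l1 (Entrez gene 12048) encodes BCL-XL, which holds pore formers and BH3-only proteins in check. It read 10.39, 10.30 and 10.50 on the senescent arrays, against 9.95, 9.90 and 9.88 on the proliferating arrays. The lowest senescent array lay above the highest proliferating one, and the 3 proliferating arrays lay within a narrow range. The log2 change was 0.49 ± 0.07 (SE, n = 3 per group, 95% interval 0.32 to 0.66), with an adjusted p of 0.00291 (limma, Benjamini-Hochberg). Of all 18193 genes, 797 (4.38%) had a change at least as high. All 4 probe sets of the gene gave a positive change, and 2 of them passed when probe sets were tested one by one. The second brightest read 7.03, 6.96 and 6.86 on senescent arrays, against 6.60, 6.47 and 6.60 on proliferating arrays, a change of 0.39 ± 0.08 (adjusted p = 0.0196 over all probe sets). Its groups did not overlap either, but the call ended without senescent replicate 1 or 2 or proliferating replicate 2 or 3 (adjusted p of 0.0547 to 0.0722). The third had a similar change, 0.40 ± 0.15, with overlapping groups (adjusted p = 0.136), and the dimmest lay below background on all 6 arrays.

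The 300 bases around an annotated start of a gene show what sequence its transcription begins in. The table of RefSeq promoters (build GRCm38.p6, 250 bases before to 50 after each start) held 9 of the 10 genes, with 15 starts, and Bik is named only. The NF-kB motif, bound by a factor family known to induce Bcl2l1, was found by script on either strand in 2 of the 15, 1 of the 3 starts of Bcl2l1 and 1 of Bmf, against 8.46% of all 32851 promoters. The forkhead motif TGTTTAC, bound by FOXO factors that are known to induce Bcl2l11, was found in 1 of the 15, a start of Bcl2l11, against 3.65% of all promoters. Both are printed because these genes lie at the top and near the bottom of the 10 changes. Capitals mark the motif (for Bcl2l11 its reverse complement), and a match describes letters, not binding. The first lies at chr2:152830668-152830967 on the minus strand and the second at chr2:128125788-128126087 on the plus strand, both written in the direction of transcription.
Bcl2l1: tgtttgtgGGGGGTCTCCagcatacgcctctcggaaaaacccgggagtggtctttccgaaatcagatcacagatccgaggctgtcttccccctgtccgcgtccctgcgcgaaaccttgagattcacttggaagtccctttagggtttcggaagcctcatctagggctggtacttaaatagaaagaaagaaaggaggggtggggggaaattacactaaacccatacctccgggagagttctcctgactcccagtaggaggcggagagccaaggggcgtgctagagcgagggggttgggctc
Bcl2l11: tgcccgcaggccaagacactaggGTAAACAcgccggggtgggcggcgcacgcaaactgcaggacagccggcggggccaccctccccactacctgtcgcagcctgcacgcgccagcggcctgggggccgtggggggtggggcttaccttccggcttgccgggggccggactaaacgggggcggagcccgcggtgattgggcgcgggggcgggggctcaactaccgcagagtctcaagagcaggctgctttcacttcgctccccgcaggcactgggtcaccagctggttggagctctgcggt
The STAT motif TTCNNNGAA, the AP-1 motif TGANTCA, the TATA box TATAAA and the CRE (cyclic AMP response element) motif were in none of the 15, against 8.3%, 7.81%, 13.6% and 1.79% of all promoters. The ETS motif CCGGAAG was in 3, of Bcl2l1 (another start), Mcl1 and Bcl2l11, against 8.86%. The p53 half-site was in 1, of Bmf, against 8.36%. The GC box GGGCGG was in 8 of the 15, against 35.7%, and the CCAAT box in 5, against 37.4%.

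**Figure D1:**
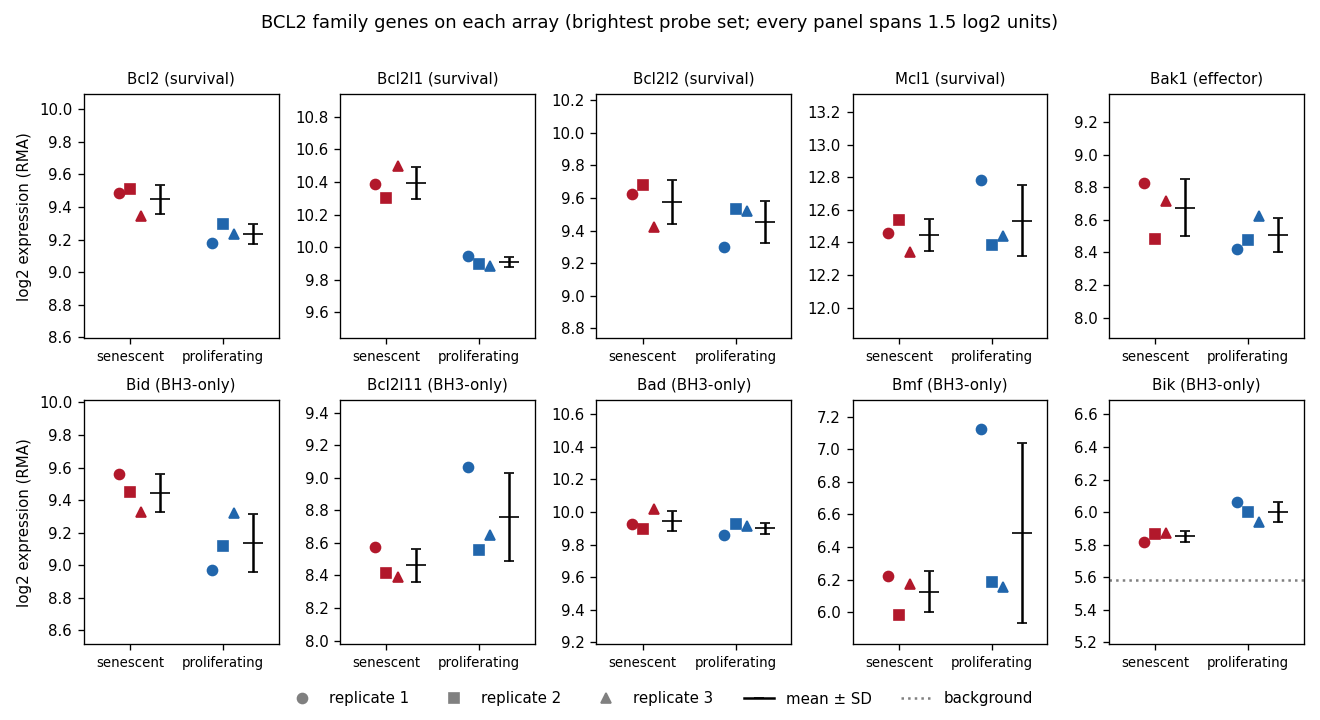
RMA log2 expression (vertical axis) of the 10 BCL2 family genes on each of the 3 senescent and 3 proliferating arrays, from the brightest probe set; symbols give the replicate, bars the mean ± SD, and the dotted line the background of 5.58. Bcl2l1 shows the clearest gap between groups (10.30 to 10.50 against 9.88 to 9.95, a direction that poly-A scaling turned), while the proliferating spread of Bmf, Bcl2l11 and Mcl1 comes from replicate 1.

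Bcl2 (Entrez gene 12043), the founding survival gene of the family, moved the same way as Bcl2l1 in its brighter probe sets but by less. Its brightest probe set read 9.49, 9.51 and 9.34 on senescent arrays and 9.18, 9.30 and 9.23 on proliferating arrays. The groups did not overlap, yet the change of 0.21 ± 0.08 missed the threshold (adjusted p = 0.0925). The third brightest read 7.36, 7.14 and 7.30 on senescent arrays and 6.87, 6.88 and 6.88 on proliferating arrays. It passed among probe sets with a change of 0.39 ± 0.08 (adjusted p = 0.0188), a call that ended without senescent replicate 1 or 3 or proliferating replicate 2 or 3 (adjusted p of 0.0586 to 0.0689). The 2 dimmest of its 5 probe sets, within 1 unit of background, gave -0.19 and -0.11. With the mean of its 5 probe sets the change of Bcl2 was 0.10 (adjusted p = 0.443), and with median centring it was 0.28 and passed (adjusted p = 0.0373). Poly-A scaling turned the change of the brightest probe set to -0.33.

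Mcl1 (Entrez gene 17210) encodes a short-lived survival protein. Its brightest probe set read 12.46, 12.54 and 12.34 on senescent arrays and 12.78, 12.38 and 12.44 on proliferating arrays, so the groups overlapped. The change was -0.09 ± 0.11 (95% interval -0.35 to 0.17, adjusted p = 0.664), and without proliferating replicate 1 it was 0.03. Its 6 probe sets gave changes of -0.09 to 0.15, none of which passed. Bcl2l2 (Entrez gene 12050), which encodes BCL-W, read 9.63, 9.68 and 9.42 on senescent arrays and 9.30, 9.53 and 9.52 on proliferating arrays. Its change was 0.12 ± 0.10 (95% interval -0.10 to 0.35), and 3 of its 4 probe sets were positive. Leaving out 1 array moved the change between 0.050 (without proliferating replicate 1) and 0.20 (without senescent replicate 3). The estimated change of Bcl2l1 (0.49) lies outside both intervals, while some smaller changes lie inside them. The lower end of the interval of Bcl2l1 (0.32) lies inside that of Bcl2l2. These intervals hold for the deposited scaling only. With poly-A scaling the brightest probe sets gave -0.63 for Mcl1 and -0.42 for Bcl2l2.

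Bak1 (Entrez gene 12018), the pore former among the 10 genes, read 8.82, 8.48 and 8.72 on senescent arrays and 8.42, 8.48 and 8.62 on proliferating arrays. The groups overlapped, and the change was 0.17 ± 0.10 (95% interval -0.07 to 0.40, adjusted p = 0.325). Both of its probe sets gave about the same value, 0.17 and 0.19. Poly-A scaling turned it to -0.37.

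The 5 BH3-only genes went in both directions, and none passed the test. Bid (Entrez gene 12122), whose protein is cut by caspase 8 and carries death receptor signals to mitochondria, read 9.56, 9.45 and 9.33 on senescent arrays and 8.97, 9.12 and 9.32 on proliferating arrays. The groups did not overlap, but senescent replicate 3 and proliferating replicate 3 almost met. The change was 0.31 ± 0.11 (95% interval 0.07 to 0.55, adjusted p = 0.0782), and all 3 probe sets were positive (0.10 to 0.31). It passed with a variance trend (0.31, adjusted p = 0.0479), with median centring of the arrays (0.38, adjusted p = 0.0368) and without proliferating replicate 3 (0.40, adjusted p = 0.039), and turned to -0.23 with poly-A scaling. Without proliferating replicate 1 the change of its brightest probe set shrank to 0.23 (limma over all probe sets, adjusted p = 0.257). Without senescent replicate 1 it was 0.25 (adjusted p = 0.288).

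Bcl2l11 (Entrez gene 12125) encodes BIM, which binds every survival protein of the family. Its brightest probe set read 8.58, 8.42 and 8.39 on senescent arrays and 9.07, 8.56 and 8.65 on proliferating arrays. Proliferating replicate 1 was the highest, and senescent replicate 1 lay just above proliferating replicate 2. The change was -0.30 ± 0.13 (95% interval -0.60 to 0.01, adjusted p = 0.169), and -0.14 without proliferating replicate 1 (adjusted p = 0.341). All 5 probe sets of the gene were negative, from -0.49 to -0.24, and 3 of them had senescent arrays wholly below proliferating ones. The second brightest probe set, with the largest change, read 7.73, 7.69 and 7.51 on senescent arrays and 8.45, 8.02 and 7.92 on proliferating arrays. Its change of -0.49 ± 0.14 missed the threshold over all probe sets (adjusted p = 0.0625) and was -0.33 without proliferating replicate 1 (adjusted p = 0.0847). It passed with a variance trend (adjusted p = 0.0433), with a robust trend (0.0401), among probe sets above background (0.0456) and with a replicate block (0.0384). In the fit over genes it passed when probe sets with a suffix that can mark several transcripts were left out, which makes it the one read (adjusted p = 0.0421). With poly-A scaling, which shifts all genes of an array alike, all 5 probe sets passed as lower (-1.03 to -0.78, limma over all probe sets).

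Bad (Entrez gene 12015), whose protein is held inactive by phosphorylation and 14-3-3 proteins, read 9.93, 9.90 and 10.02 on senescent arrays and 9.86, 9.92 and 9.91 on proliferating arrays. Its groups overlapped, with a change of 0.05 ± 0.07 (95% interval -0.11 to 0.20), and its other probe set gave -0.08. Without proliferating replicate 1 it was 0.026. Bmf (Entrez gene 171543), which is linked to the actin and myosin cytoskeleton, read 6.22, 5.98 and 6.17 on senescent arrays and 7.12, 6.18 and 6.15 on proliferating arrays. Its change of -0.36 ± 0.24 rested on proliferating replicate 1 and was -0.04 without it, and its other 2 probe sets, near or below background, gave 0.22 and 0.02. Bik (Entrez gene 12124) read 5.81, 5.87 and 5.87 on senescent arrays and 6.06, 6.00 and 5.94 on proliferating arrays, all close above background. Its groups did not overlap, the change was -0.15 ± 0.07 (adjusted p = 0.176), and its other 2 probe sets lay below background on all 6 arrays.

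**Figure D2:**
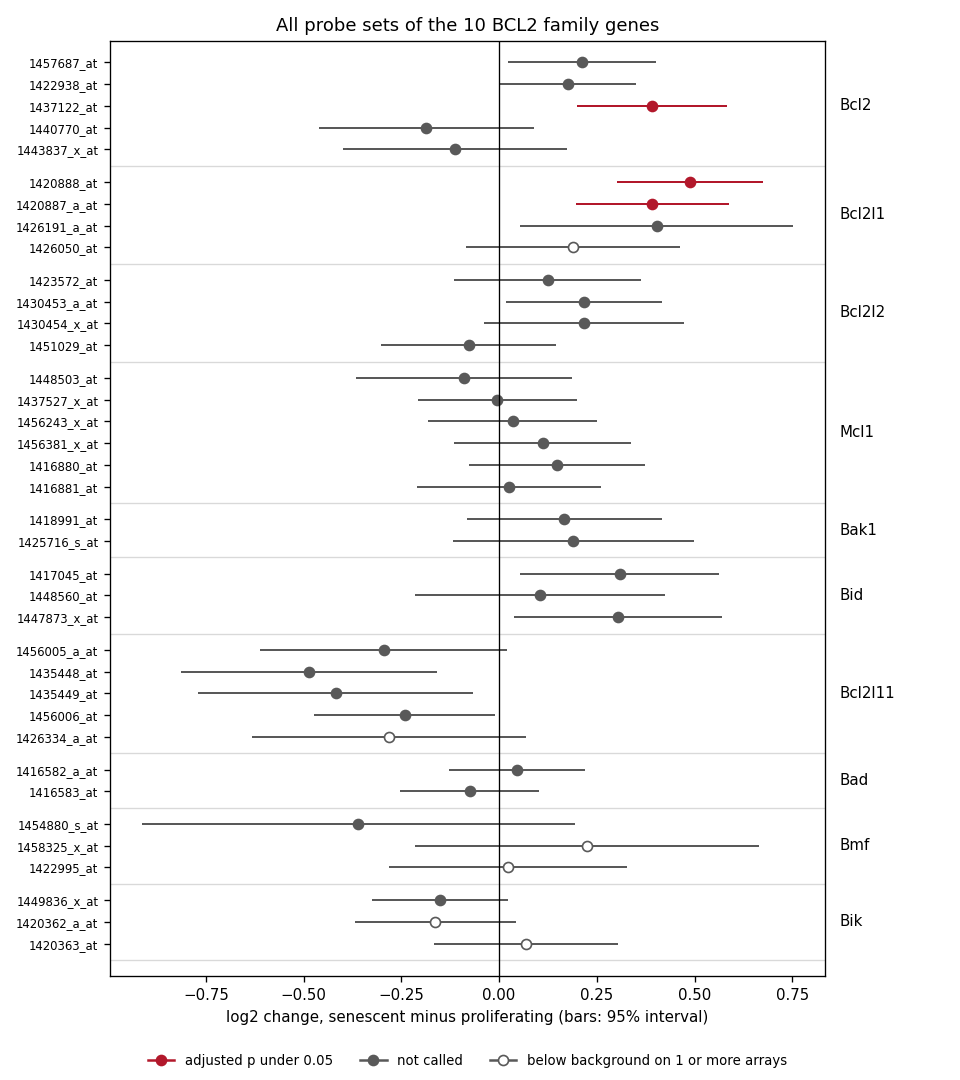
Log2 change, senescent minus proliferating (horizontal axis), of each of the 37 probe sets with its 95% interval, grouped by gene, from limma over all probe sets. The 3 called probe sets are 2 of Bcl2l1 and 1 of Bcl2, with changes of 0.39 to 0.49 (-0.05 to -0.15 with poly-A scaling), while all 5 probe sets of Bcl2l11 lie left of 0.

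Over the 37 probe sets, 3 rose and 0 fell at an adjusted p of 0.05 (limma), against 12.4% of all probe sets called in either direction and 5.99% called higher. All 3 turned negative with poly-A scaling (-0.15 to -0.05). In other settings named above, 1 probe set of Bcl2l11 fell in 4 of them, and all 5 of Bcl2l11 fell with poly-A scaling. Without adjustment 3 probe sets, all of Bcl2l11, had a negative change at a p under 0.05. Changes were positive in 23 and negative in 14, with a median of 0.07, beside 0.0021 over all probe sets. The groups did not overlap in 8 with senescent arrays higher and in 4 with senescent arrays lower, against 14.9% and 16.0% of all probe sets (31.0% in either direction). Those 8 were 3 of Bcl2, 2 each of Bcl2l1 and Bcl2l2 and 1 of Bid, and the 4 were 3 of Bcl2l11 and 1 of Bik. The probe sets of a gene share its transcripts and are not independent. For 4 genes, Bcl2l1, Bid, Bak1 and Bcl2l11, all probe sets had the same sign. Leaving out 1 array brought the count of called probe sets to 1, the brightest of Bcl2l1, without senescent replicate 1 or proliferating replicate 2 or 3, and to 2 or 3 without any of the others.

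The array scaling cancels in the difference between 2 genes of the same array, so the gap between Bcl2l1 and other members is given as a description, chosen after the values were seen and with no test. Bcl2l1 had the highest change of the 10, so the mean of Bcl2l1 minus any other member had to rise, and all gaps share the same Bcl2l1 values. The gap to Bcl2l11 was 1.81, 1.88 and 2.11 on senescent arrays and 0.88, 1.34 and 1.24 on proliferating arrays. The gap to Mcl1, whose probe set is the brighter one, averaged -2.05 in senescent and -2.63 in proliferating cells, so it was narrower in senescent cells. The gaps to Bcl2l2 and Bid overlapped between groups, with changes of 0.36 and 0.18.

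**Figure D3:**
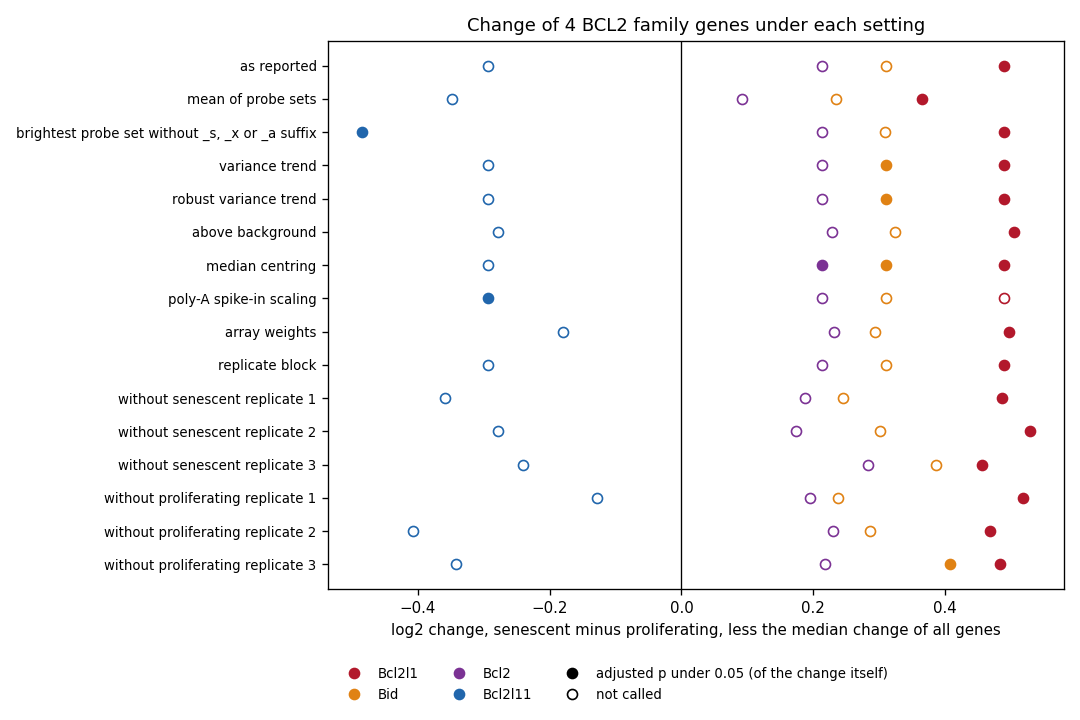
Log2 change of Bcl2l1, Bid, Bcl2 and Bcl2l11 less the median change of all genes (horizontal axis) under each setting (rows); filled points passed an adjusted p of 0.05 for the change itself. Rows for the variance trends, median centring, poly-A scaling and the replicate block repeat the reported position by construction. In the other rows Bcl2l1 lies between 0.36 and 0.53, and it passed in each setting but poly-A scaling, where its change itself was -0.05.

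The genes whose 6 array values ran closest to those of Bcl2l1, after each gene was centred on its own mean, were Sidt2, Srf, Sox13, Arf3 and Zbtb4. Likeness was the root mean square difference over the 6 arrays, which was 0.008 log2 units for Sidt2 and 0.021 to 0.028 for the others, among genes above background. Sidt2, which encodes a lysosomal membrane protein, read 10.31, 10.23 and 10.40 on senescent arrays and 9.86, 9.81 and 9.80 on proliferating arrays. Srf encodes serum response factor, a regulator of cytoskeletal and growth genes, and had a change of 0.50. The measure includes the difference between groups, so all 5 had changes of 0.49 to 0.50.

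Among the other family members, the pathway around them was read from gene lists. Of 10 further BCL2 family genes measured, 3 passed, all higher in senescent cells (array-wide, 20.0% of genes passed and 9.49% were higher), and 0 fell (limma; Bcl2l12 and Bnip3 at an unadjusted p under 0.05), with a median change of 0.12. Pmaip1, which encodes the BH3-only protein NOXA that neutralises MCL1, read 7.69, 7.36 and 7.22 on senescent arrays and 6.02, 6.02 and 6.01 on proliferating arrays. It rose 2.65-fold (1.41 ± 0.12, adjusted p = 1.65e-04). Bok, a pore former related to BAX and BAK, had a change of 0.30 ± 0.08 (adjusted p = 0.0303) that turned to -0.24 with poly-A scaling. Its call ended when any array other than proliferating replicate 3 was left out (0.24 to 0.33, adjusted p of 0.0527 to 0.102) and with a replicate block (adjusted p = 0.0699). Bcl2l15 passed (0.89 ± 0.12) but lay below background on all 6 arrays, so no fold is given. Bbc3, which encodes the BH3-only protein PUMA, had a change of 0.38 ± 0.12 (adjusted p = 0.06) with groups that did not overlap, and passed without proliferating replicate 1 (0.51, adjusted p = 0.0103). Hrk and Bcl2l14 had changes of 0.03 and -0.04. Bcl2l13, a mitochondrial family member, was at -0.04 in its brightest probe set, but its other one passed among probe sets (-0.43 ± 0.07, adjusted p = 0.00796) with 8.11, 7.99 and 8.04 on senescent arrays and 8.46, 8.48 and 8.499 on proliferating arrays, so the 2 probe sets disagree. Changes not called were 0.22 for Bcl2l10, below background, -0.26 for Bcl2l12 (-0.31 and called without proliferating replicate 1, adjusted p = 0.0433) and -0.31 for Bnip3 (-0.18 without it). Bax, Bnip3l and the Bcl2a1 paralogs were not analysed here.

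Death receptor genes, which act upstream of Bid, gave 3 higher and 1 lower of 9, against 9.49% and 10.5% of all genes, with a median of 0.20. That balance rested partly on proliferating replicate 1. Without it Casp8 was no longer called, and Fadd (-0.26, limma, adjusted p = 0.0499) and Tnfrsf25 (-0.52, adjusted p = 0.00509) passed as lower. Tnfrsf25 lay below background on average in both groups. Tnfrsf21, which encodes death receptor 6, rose 2.96-fold (1.57 ± 0.09, adjusted p = 3.46e-05). Cflar encodes c-FLIP, which blocks caspase 8 at the receptor. It read 10.74, 10.92 and 10.85 on senescent arrays and 9.76, 10.00 and 10.05 on proliferating arrays, and rose 1.86-fold (0.90 ± 0.10, adjusted p = 5.61e-04). Of its 5 probe sets 4 passed, with changes of 0.90 to 1.13. With poly-A scaling the change was 0.36 and missed the threshold (adjusted p = 0.0688). Casp8 itself, which cuts BID, had a change of 0.30 ± 0.09 (adjusted p = 0.0481) that turned to -0.24 with poly-A scaling. Its call ended when any array other than proliferating replicate 3 was left out (0.21 to 0.33) and with a replicate block (adjusted p = 0.0897). Tnfrsf1a, a receptor of tumour necrosis factor, fell by 0.36 ± 0.07 (adjusted p = 0.00943). Tnfrsf10b, the mouse TRAIL receptor, missed the threshold in its brightest probe set (0.33 ± 0.10, adjusted p = 0.0555), while another passed among probe sets (0.62 ± 0.08, adjusted p = 0.00199; 0.079 with poly-A scaling).

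Downstream of the mitochondria, of 14 apoptosome and caspase genes, 0 rose (limma, also at an unadjusted p under 0.05) and 1 fell, against 9.49% and 10.5% of all genes, with a median of -0.08. That gene was Casp2, an initiator caspase that can cut BID, at 8.94, 8.93 and 9.003 on senescent arrays and 9.53, 9.57 and 9.71 on proliferating arrays, lower by 1.56-fold (-0.65 ± 0.07, adjusted p = 8.03e-04). Apaf1, Casp9 and Cycs, which build the apoptosome, had changes of -0.11, -0.06 and 0.14. Of 8 inhibitor of apoptosis genes, 1 rose and 3 fell, against 9.49% and 10.5% of all genes, with a median of -0.15. Birc5, which encodes survivin, a protein that also serves in cell division, fell by 0.62 ± 0.08. Birc3 and Birc2, which encode cIAP2 and cIAP1, fell by 0.53 ± 0.12 and 0.49 ± 0.11, and the other probe set of Birc3, near background, gave 0.09, so that the mean of both missed the threshold (-0.22, adjusted p = 0.136). The call of Birc2 ended without senescent replicate 3 (-0.44, adjusted p = 0.0575). Naip2 rose by 0.58 ± 0.09 and was at 0.04 with poly-A scaling. Xiap, which blocks caspases directly, had a change of -0.30 ± 0.09 (adjusted p = 0.0513).

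Of 25 regulators that act on BCL2 family genes or proteins, 1 rose and 0 fell (limma), against the 20.0% called over all genes, with a median of -0.02. At an unadjusted p under 0.05 (limma), 3 had a negative change and more had a positive one, beside 31.5% of all genes in either direction. Mapk9, which encodes the kinase JNK2, had a change of 0.30 ± 0.07 (adjusted p = 0.0229) that turned to -0.24 with poly-A scaling, and its other 2 probe sets gave 0.11 and -0.01. Its call ended without senescent replicate 1 or 2 or proliferating replicate 2 or 3 (adjusted p of 0.0682 to 0.0808) and with a replicate block (adjusted p = 0.056). Foxo3, which drives Bcl2l11, had 0.30 ± 0.13 (adjusted p = 0.151), with proliferating replicate 1 at the senescent level, and 0.46 without that array (adjusted p = 0.00533). Rela, an NF-kB subunit, had 0.19 ± 0.08 and did not pass. Stat3, a cytokine-activated factor, was at -0.30 ± 0.13 in its brightest probe set (-0.17 without proliferating replicate 1), not called, but the next one, nearly as bright, fell by 0.52 ± 0.08 (adjusted p = 0.00461 over all probe sets; -0.47 without that array). Likewise Fbxw7, Ppp3ca and Ppp3cb passed in the fit reported only in probe sets other than the brightest. Those gave 0.62 for Fbxw7 (0.08 with poly-A scaling), 0.40 for Ppp3ca (-0.14 with poly-A scaling) and -0.39 and -0.60 for Ppp3cb. Without proliferating replicate 1 the brightest of Ppp3ca passed too (0.49, limma, adjusted p = 0.0277). The Ppp3cb probe set at -0.60 then missed the threshold (-0.59, adjusted p = 0.0544). Usp9x and Huwe1, which remove and add ubiquitin on MCL1, had 0.11 and -0.06.

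**Figure D4:**
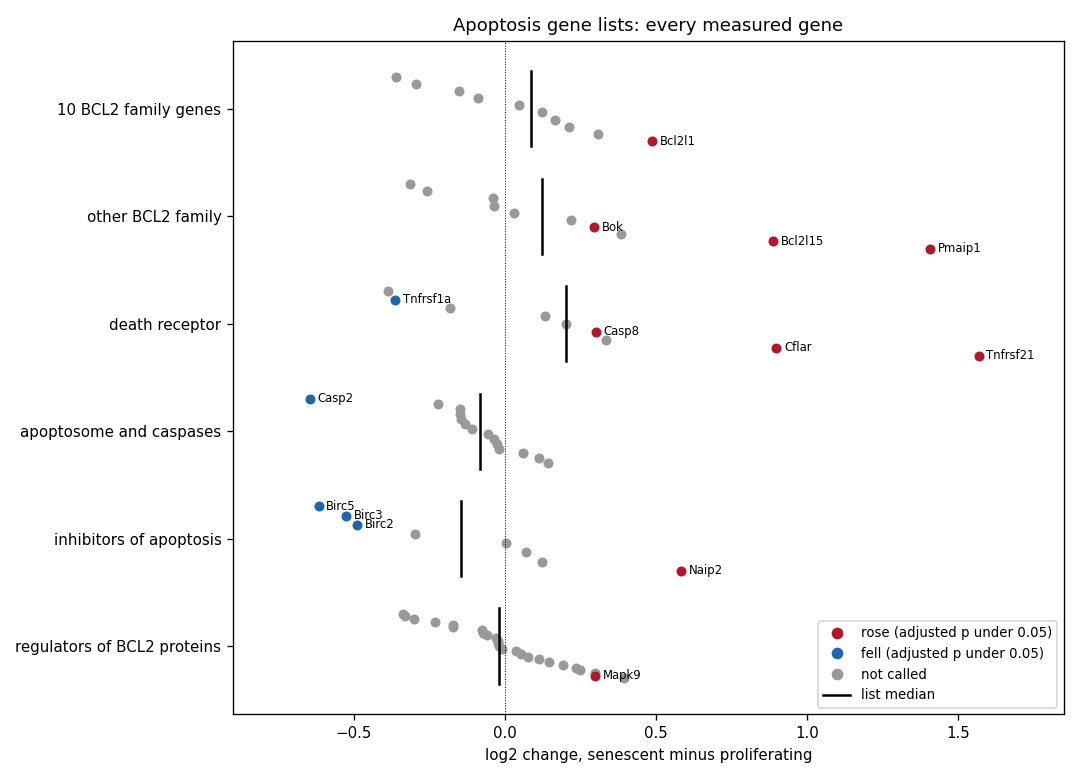
Log2 change, senescent minus proliferating (horizontal axis), of every measured gene in 6 lists (rows); red points rose, blue points fell, grey points were not called, and black lines are list medians (-0.15 to 0.20). Tnfrsf21 and Pmaip1 lie farthest right and Casp2 farthest left, Bcl2l15 lies below background on all arrays, and with poly-A scaling Bcl2l1, Bok, Casp8 and Mapk9 turn negative.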

How the data were processed

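Total RNA of cell pellets was isolated with Trizol and hybridised as biotinylated cRNA, per the labels. For each probe set the authors deposited a log2 value. The submitters' processing notes name RMA, a robust average over an array set, and its version is not given in the sources used here. RMA forces the arrays to one distribution, here equal within 0.123 log2 units at any rank, so a change is relative to the other genes, and it compresses changes of dim probe sets. No detection calls were used, and the small number of arrays sets the precision.

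Of 45101 probe sets, 64 were controls and 34945 had 1 gene symbol, of which symbols were updated through the Entrez number with a RefSeq table (GRCm38.p6). No build is stated for the probes. Each of 18193 genes was read from its brightest probe set over the 6 arrays. Genes, and separately all 45037 probe sets, were fitted with limma 3.58.1 (lmFit, eBayes; R 4.3.3) as senescent minus proliferating, with Benjamini-Hochberg adjustment over the whole table and a threshold of 0.05. The fit was tested on simulated data. Alternatives covered the probe set read, the variance model, a background filter, scaling, array weights, a replicate block and leaving out each array. The spike-in difference was tested by exact permutation over the arrays. Figures used matplotlib 3.10.9 in Python 3.11.15.

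The members and gene lists were chosen with earlier results of these data known. The genes named are the 10 members, the other measured family genes, up to 4 called genes per list, Cdkn1a and Mdm2, and the 5 genes nearest to Bcl2l1. Other genes named in the lists (Apaf1, Casp9, Cycs, Xiap, Tnfrsf10b, Fadd, Tnfrsf25, Foxo3, Rela, Stat3, Fbxw7, Ppp3ca, Ppp3cb, Usp9x and Huwe1) and the marker genes were chosen after their values were seen. The p53 transcript itself was not analysed here.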

Additional observations from a re-analysis of the deposited data

How the results depend on the processing

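Counts below are genes or probe sets past an adjusted p of 0.05 (limma). Of the 10 member genes, 1 passed in the fit reported and 2 when probe sets with an _s, _x or _a suffix were left out (1 rose and 1 fell), 2 with a variance trend, 2 with a robust trend and 3 with median centring. Poly-A scaling, which moves all genes down by its construction, gave 6 member genes and 22 member probe sets, all lower in senescent cells. Leaving out 1 array gave 1 to 2 member genes and 1 to 3 member probe sets. Among other BCL2 family genes 5 passed with median centring, 6 with poly-A scaling and 5 with array weights. Among apoptosome and caspase genes 2 passed above background and 14 with poly-A scaling, and among inhibitor of apoptosis genes 7 with poly-A scaling. Of the regulators, 4 passed with the mean of probe sets, 3 without suffixed probe sets, 3 with a variance trend, 3 with a robust trend, 4 above background, 4 with median centring, 19 with poly-A scaling and 4 with array weights, and 0 to 3 when 1 array was left out. The cause was not tested for these other than poly-A scaling.

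Poly-A scaling turned the change to -0.33 for Bcl2, -0.053 for Bcl2l1, -0.42 for Bcl2l2, -0.37 for Bak1, -0.23 for Bid, -0.49 for Bad, -0.24 for Bok, -0.16 for Bbc3, -0.32 for Bcl2l10, -0.51 for Hrk, -0.24 for Casp8 and -0.24 for Mapk9. The mean of probe sets turned Mcl1 to 0.037, Bad to -0.015 and Bcl2l14 to 0.059, and leaving out suffixed probe sets turned Bad to -0.075, Bmf to 0.024, Bik to 0.069, Bcl2l14 to 0.15 and Birc3 to 0.088, in each case by reading other probe sets. Median centring turned Bcl2l13 to 0.031 and Bcl2l14 to 0.034, and array weights turned Hrk to -0.043. Without 1 array Mcl1 ranged over -0.17 to 0.035, Bcl2l14 over -0.065 to 0.015 and Hrk over -0.047 to 0.11. The cause was not tested.

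No pairing by replicate number was seen: deviations of same-numbered arrays correlated at 0.09, -0.07 and -0.15, and 1 of 6 arrays correlated best with its own number. The deviations are taken from group means of 3 arrays and constrain each other, so they cannot decide whether arrays were paired. With a replicate block 1 member gene and 4 member probe sets (3 higher, 1 lower) passed, and 2 regulators. The block also ended the calls of Bok, Casp8 and Mapk9.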
